A study of Mus musculus with 225 samples.

Results

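The cells described here are the zeugopod cells of the E12.5 mouse forelimb, divided by whether they carried transcripts of *Meox2*, a mesenchyme homeobox gene. The division was made on the readout itself. A cell with at least 5 *Meox2* reads was called *Meox2*-positive and a cell with fewer was called *Meox2*-negative, which gave 67 positive and 56 negative cells. Together these are all the zeugopod cells that passed the quality filter, of 199 such cells in the whole series, where the other 76 came from the autopod, the future hand. All cells were heterozygous for *Hoxd11::GFP*, a knock-in in which a TauGFP sequence disrupts one *Hoxd11* copy and reports its transcription, on a mixed C57Bl6CBAF1 background. Pooled forelimbs of littermates were dissected into zeugopod, the future forearm, and autopod, and only the brightest 20% of cells for GFP were sorted for single-cell capture, so that both groups come from the brightest cells. No embryo was named for any cell. Each tissue is therefore 1 pooled sample, the 2 groups are subsets of the same pool, and no p-value or standard error was derived from cells. The zeugopod cells were sequenced in the runs NXT0142 (58 cells) and NXT0143 (65 cells), and differences were computed overall and within each run. Values within the runs are given for the leading genes and where the runs differed.

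*Meox2* encodes a homeodomain transcription factor, the paralogue of *Meox1*. It is best known from the somites and from limb muscle, where mouse embryos without it have defects of muscle patterning. In the forelimb at this stage, mesenchymal cells condense into cartilage under *Sox9* and its partners *Sox5* and *Sox6*, which drive the genes of cartilage matrix, while the cells between the condensations form tendon, muscle connective tissue and other loose connective tissue. Muscle cells themselves enter the limb from the somites and carry *Pax3*, *Lbx1* and later *Myod1*.

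The labelled tissue was checked against genes of known position along the limb. *Shox2*, a gene of the arm and forearm, had at least 5 reads in 73 zeugopod cells (59.3%) and in 0 of 76 autopod cells, and it was present in both zeugopod groups, in 44 positive and 29 negative cells. *Hoxd13*, a gene of the autopod, had 5 reads in 1 zeugopod cell and in 65 autopod cells. Reads on genes ranged from 186271 to 6801278 per cell in the positive group, with a median of 3507551, and from 234351 to 5212156 in the negative group, with a median of 2952330.

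In all, 54.5% of zeugopod cells were *Meox2*-positive, with an exact binomial 95% interval of 45.2% to 63.5%. This and the other intervals cover the counting of cells only. The share was 31 of 58 cells (53.4%) in NXT0142 and 36 of 65 cells (55.4%) in NXT0143. Among autopod cells, 5 of 76 (6.58%) reached 5 reads. *Meox2* lies on chromosome 12 of GRCm38, from 37108540 to 37179534 on the plus strand.

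Positive cells did not hold similar amounts of the transcript. Their *Meox2* reads ran from 5 to 12184 with a median of 1205, which corresponds to a median normalized value of 603 (counts divided by a spike-in size factor and by gene length). Most cells fell in 2 ranges. There were 47 cells with at least 392 reads, 15 cells with 5 to 19 reads, and 5 cells in between, the highest of these with 86 reads. Among negative cells 38 had 0 reads and 18 had 1 to 4. Near the threshold, 3 cells had 4 reads and 4 cells had 5. Of the 15 cells with 5 to 19 reads, 11 belonged to NXT0142 and 4 to NXT0143.

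**Figure D1:**
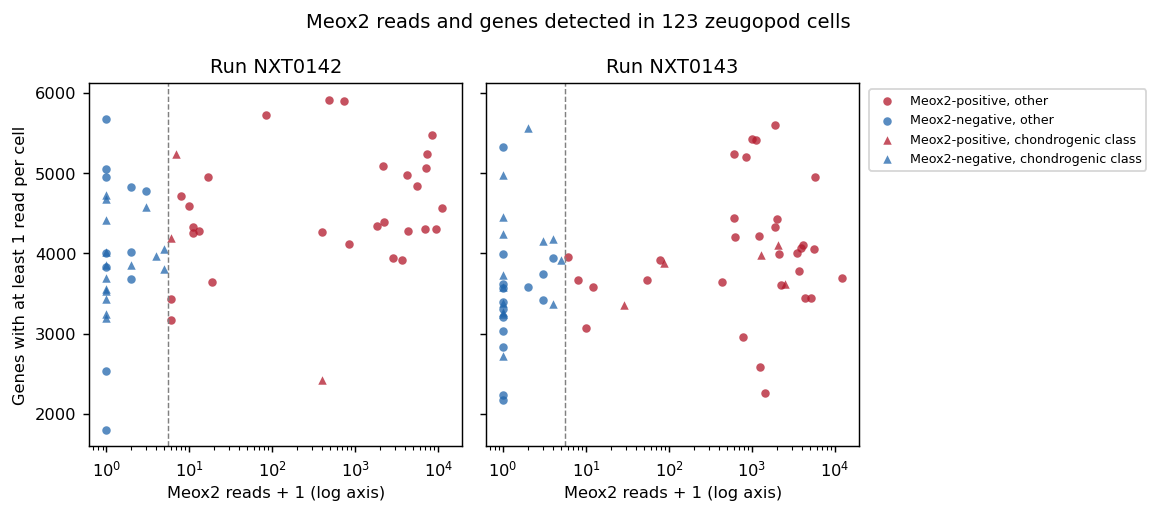
*Meox2* reads plus 1 (log axis) against the number of genes with at least 1 read in each zeugopod cell, by run; red marks *Meox2*-positive and blue *Meox2*-negative cells, triangles mark cells of the chondrogenic class and the dashed line is the threshold of 5 reads. Triangles are concentrated left of the line, with 30 among 56 negative and 8 among 67 positive cells, and the median number of genes is 4210 right of the line and 3773.5 left of it.

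Positive cells were also cells in which more genes were detected. The median was 4210 genes with at least 1 read, between 2265 and 5917, against 3773.5 genes, between 1801 and 5681, in negative cells. The medians were 4342 and 3971 in NXT0142 and 3967.5 and 3583 in NXT0143, so that the order was the same in each run although the groups overlapped widely. After each cell was thinned to 500000 reads, the medians were 3190.5 genes in 66 positive cells and 2920 genes in 53 negative cells. The number of genes also moved across the scale of *Meox2*, with medians of 3577 at 0 reads, 3954 at 1 to 4 reads, 4187 at 5 to 19 reads and 4216.5 at 20 or more. This order held in NXT0142, whereas in NXT0143 the median at 5 to 19 reads was 3628, below the 3919 at 1 to 4 reads, and NXT0142 gave 11 of the 15 cells at 5 to 19 reads. The part that this difference in detected genes plays in the comparisons that follow was not tested as a cause, and the called genes were also compared among cells with fewer and among cells with more genes detected.

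Across genes, the comparison was the mean log2(normalized value + 1) of positive cells minus that of negative cells. It was made for the 5067 genes that reached 5 reads in 25% or more of positive or of negative cells. A gene could pass this filter through the group where it was high alone, which favours a difference in that direction. The median over all these genes was 0.38 (0.45 in NXT0142 and 0.31 in NXT0143), and 3764 genes (74.3%) lay above 0. A gene was called when the difference was at least 2 in size and had the same direction in both runs. By this rule 59 genes were higher in positive cells (1.16% of those tested), *Meox2* among them by construction at 7.07, and 12 genes were lower (0.237%). The size was required over both runs together and not within each. Besides *Meox2*, 19 of the 58 higher genes and 6 of the 12 lower genes differed by at least 2 in both runs. With the median over all genes subtracted in each run, the calls became 20 higher and 22 lower. On the scale of log2(CPM + 1), where CPM is the reads of a gene scaled to the total of the cell, they were 56 higher and 24 lower. A smaller difference of at least 1 was reached by 731 genes upward (14.4%) and 92 downward (1.82%). Apart from *Meox2*, the range of values in positive cells overlapped that in negative cells for all 58 genes called higher and all 12 called lower. The same count was not made over all genes tested, so the overlap is not read as a trait of the called genes.

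**Figure D2:**
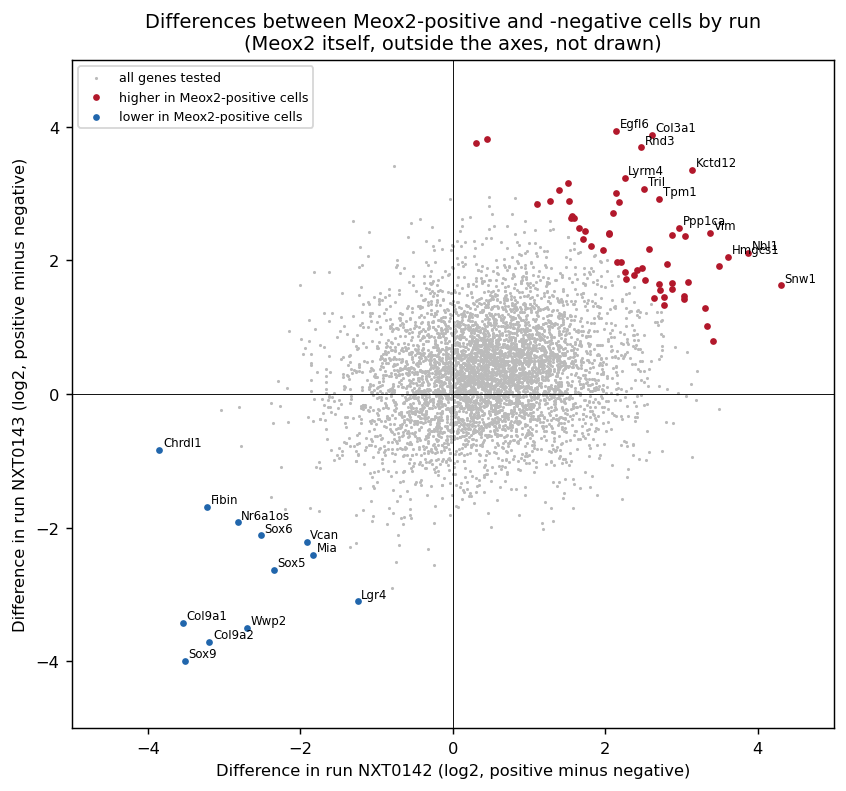
Difference of mean log2(normalized value + 1) between *Meox2*-positive and *Meox2*-negative cells in run NXT0142 (horizontal) and run NXT0143 (vertical) for the 5067 genes tested, with the genes called higher in red and lower in blue. Names mark the 12 largest differences each way; *Sox9* stands at -3.52 and -4.0 and *Col3a1* at 2.61 and 3.88, while the cloud of all genes is shifted above 0 in both runs.

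The 12 genes lower in *Meox2*-positive cells included 3 from the list of chondrogenic factors and 2 from that of cartilage matrix. *Sox9*, the factor required for cartilage to form (chromosome 11, 112782224 to 112787760, plus strand), had the largest difference at -3.77, with -3.52 in NXT0142 and -4.0 in NXT0143. Its normalized value had a median of 2.17 and a highest value of 3856 in positive cells, against a median of 698 and a highest value of 6558 in negative cells. At least 5 *Sox9* reads were present in 34 of 67 positive cells (50.7%, 38.2% to 63.2%) and in 45 of 56 negative cells (80.4%, 67.6% to 89.8%), so the gene was frequent in both groups. After thinning the shares were 42.4% and 84.9%.

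The partners of *Sox9* followed it. *Sox5* differed by -2.51, with -2.35 in NXT0142 and -2.63 in NXT0143, and had 5 reads in 13 positive and 36 negative cells. *Sox6* differed by -2.30, with -2.52 and -2.11 in the same runs, and was found in 10 positive and 31 negative cells. These 2 related factors are known to act with SOX9 on the enhancers of cartilage genes. On the whole list of chondrogenic factors, these were 3 lower of 6 genes tested, beside 0.237% lower over all genes, none was higher, and the list's median was -1.69 beside 0.38 over all genes. Of the remaining members, *Foxc1* stood at -1.07, *Trps1* at -0.41 and *Zbtb20* at 0.01. The list had 11 genes, and *Sox5* and *Sox6* passed the filter only through the negative cells, where they were high.

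Cartilage matrix showed the same direction. *Col9a1*, a chain of the type IX collagen that coats cartilage fibrils, had at least 5 reads in 6 of 67 positive cells (8.96%, 3.4% to 18.5%) and in 30 of 56 negative cells (53.6%, 39.7% to 67%), and its difference was -3.49, with -3.54 in NXT0142 and -3.43 in NXT0143. *Col9a2*, a second chain of the same collagen, differed by -3.45 (-3.20 and -3.71 within the runs) and was found in 16 and 39 cells. Of 17 matrix genes listed, 6 passed the filter. All 6 lay below 0, between -3.49 and -0.89, with a median of -1.75, and 2 of them were called, beside 0.237% lower over all genes. These 2, *Col9a1* and *Col9a2*, passed only through the negative cells, where they were high, so the filter favoured their direction. *Col2a1*, the main collagen of cartilage, was common to both groups, in 59 positive and 53 negative cells, and differed by -1.95. *Acan*, which encodes aggrecan and did not pass the filter, had 5 reads in 4 positive and 13 negative cells.

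The other genes called lower were on neither of these lists. *Wwp2*, a ubiquitin ligase gene whose intron holds a cartilage microRNA, differed by -3.12 and had 5 reads in 31.3% of positive and 62.5% of negative cells. *Mia*, which encodes a small secreted cartilage protein, was found in 3 positive and 20 negative cells and differed by -2.14. *Vcan*, the gene of the proteoglycan versican, differed by -2.09 and was frequent in both groups, in 65.7% and 89.3% of cells. *Lgr4*, a receptor for the Wnt potentiators of the R-spondin family, differed by -2.22, with -1.25 in NXT0142 and -3.10 in NXT0143. It was the only one of 10 genes tested from the Wnt list to be called, where 0.237% of all genes were lower.

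*Chrdl1*, a secreted BMP antagonist, was almost absent from positive cells, with 5 reads in 2 of 67 against 20 of 56 negative cells, but its difference was unequal between runs, -3.85 in NXT0142 and -0.84 in NXT0143. *Fibin*, a secreted factor of fin and limb buds, differed by -2.40. *Nr6a1os*, a transcript antisense to the *Nr6a1* locus, was found in 5 positive and 23 negative cells and differed by -2.36. Whether the counting used strand is not given in the sources used here, so that reads of *Nr6a1os* and of genes on the opposite strand cannot be told apart.

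**Figure D3:**
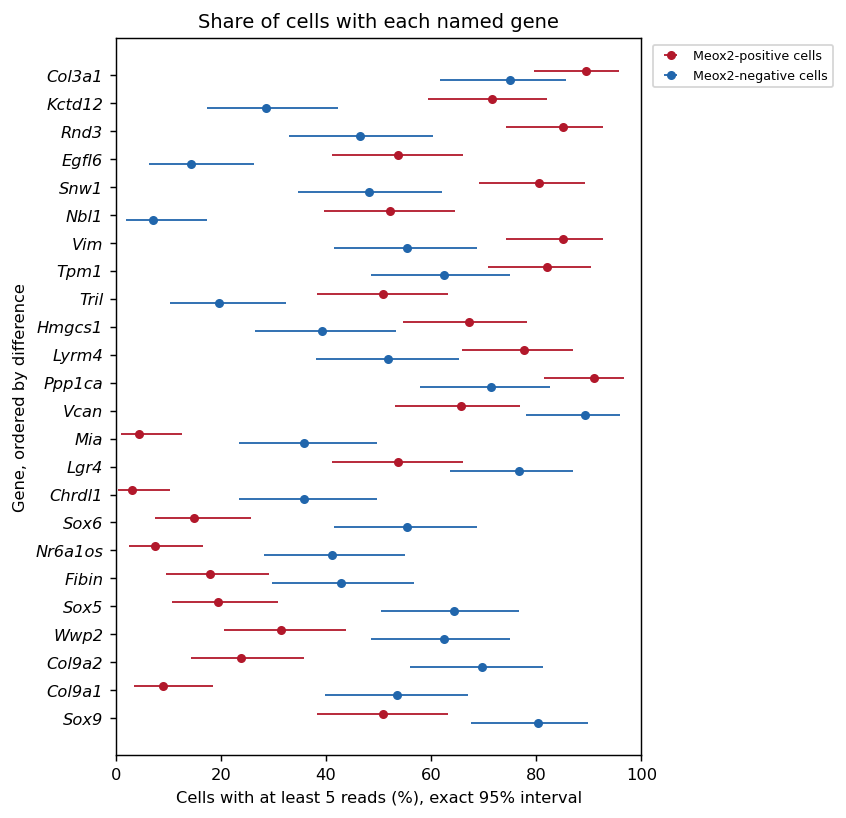
Share of *Meox2*-positive (red) and *Meox2*-negative (blue) zeugopod cells with at least 5 reads of each of the 24 genes with the largest differences, ordered by difference; bars are exact binomial 95% intervals over cells. *Col3a1* is frequent in both groups, in 89.6% and 75.0% of cells, whereas *Nbl1* is present in 52.2% and 7.14%, and *Col9a1* in 8.96% and 53.6%.

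In the opposite direction, *Col3a1*, a fibrillar collagen of loose connective tissue (chromosome 1, 45311538 to 45349706, plus strand), had the largest difference after *Meox2*, 3.29, with 2.61 in NXT0142 and 3.88 in NXT0143. Its normalized value had a median of 279 and a highest value of 2877 in positive cells and a median of 4.32 and a highest value of 2644 in negative cells. It had 5 reads in 60 of 67 positive and 42 of 56 negative cells, and thinning widened the gap to 89.4% against 50.9%.

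Several of the genes called higher were present in few negative cells. Of those that follow, *Nbl1*, *Egfl6* and *Tril* passed the filter only through positive cells. *Kctd12*, an auxiliary subunit of GABA-B receptors, differed by 3.25 and had 5 reads in 48 positive and 16 negative cells. *Nbl1*, which encodes a secreted BMP antagonist of the DAN family, differed by 2.91 and was found in 35 positive cells and in 4 negative ones. *Egfl6*, an EGF-repeat protein of the extracellular matrix, was found in 36 and 8 cells and differed by 3.09. *Tril*, a leucine-rich membrane protein that interacts with Toll-like receptors, was found in 34 and 11 cells and differed by 2.80. The same direction in both runs was a condition of the call. The smallest value of these 4 within a run was 2.12, for *Nbl1* in NXT0143.

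*Rnd3*, a small GTPase that opposes actin contractility, differed by 3.11, and its normalized median was 137 in positive and 0.90 in negative cells. *Vim*, the intermediate filament of mesenchymal cells, differed by 2.86 with 5 reads in 57 positive and 31 negative cells. *Tpm1*, an actin-binding tropomyosin, differed by 2.81.

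Of the remaining genes among the 12 with the largest values, *Snw1*, a splicing and transcription cofactor, differed by 2.91 but unequally, 4.30 in NXT0142 and 1.63 in NXT0143. *Hmgcs1*, an enzyme of cholesterol synthesis, differed by 2.78, *Lyrm4*, a protein of iron-sulphur cluster assembly, by 2.74, and *Ppp1ca*, a catalytic subunit of protein phosphatase 1, by 2.69. *Ppp1ca* was detected in most cells of both groups, 91% and 71.4%.

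**Figure D4:**
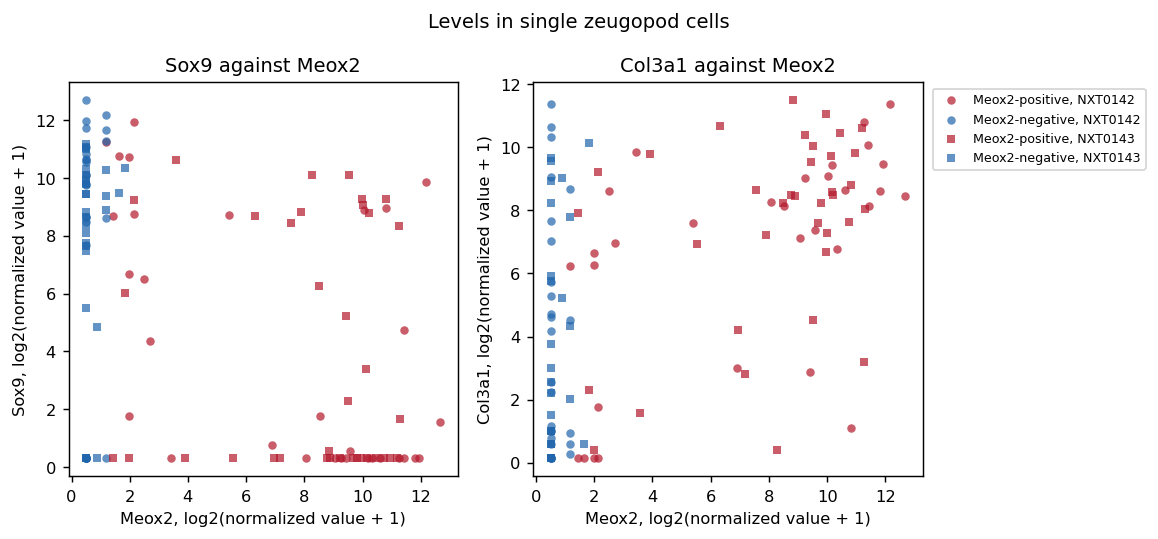
Normalized values of *Sox9* (left) and *Col3a1* (right) against *Meox2* in each zeugopod cell, all as log2(value + 1), with circles for NXT0142 and squares for NXT0143. Of the 52 cells with 20 or more *Meox2* reads, 22 have at least 5 reads of *Sox9* and 50 of *Col3a1*.

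Cell by cell, *Meox2* and *Sox9* were not mutually exclusive, since 34 cells had at least 5 reads of both. Of these, 12 had only 5 to 19 *Meox2* reads and 22 had 20 or more. In NXT0142 these were 10 and 6 cells, and in NXT0143 2 and 16. Over all zeugopod cells the rank correlation with *Meox2* was -0.42 for *Sox9* and 0.51 for *Col3a1*, and 0.34 for the number of genes detected. These values share the cells' depth and are given as a description. The most negative values over all genes tested were those of *Sox5* (-0.54), *Col9a2* (-0.46), *Sox6* (-0.45), *Col9a1* (-0.43) and *Iqcf3* (-0.42), the last a gene with normalized values of at most 15.2. Among the most positive were *Col3a1*, *Nbl1* (0.46), *Osr1* (0.45) and *Kctd12* (0.44). Within the 67 positive cells alone, the correlation of *Meox2* with *Sox9* was -0.27, and it was -0.50 in NXT0142 and -0.04 in NXT0143, so that it was not shared by the runs.

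The gene lists place these genes in their families. Interstitial matrix had 24 genes tested, of which 5 were called higher (*Col3a1*, *Col1a2*, *Dcn*, *Lum* and *Ogn*) and 1 lower (*Vcan*), beside 1.16% higher and 0.237% lower over all genes. The list's median was 1.07. *Dcn*, the small proteoglycan decorin, differed by 2.26 and was present in 27 positive and 9 negative cells. *Lum*, its relative lumican, also differed by 2.26, but by 0.45 in NXT0142 and 3.82 in NXT0143. *Ogn*, another member of this proteoglycan family, was similarly uneven at 0.30 and 3.76. *Col1a2* was close to ubiquitous, in 65 positive and 52 negative cells, and differed by 2.11 in level. The median of the list followed the run too, at 0.49 in NXT0142, near the median of all genes there, and 1.5 in NXT0143.

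Retinoic acid binding was a further group. *Crabp1* and *Crabp2*, the cellular retinoic acid binding proteins, differed by 2.65 and 2.57. *Crabp1* had 5 reads in 43 positive and 20 negative cells and *Crabp2* in 55 and 34. They were among the 3 genes called of 6 tested from the retinoic acid pathway, all 3 higher, beside 1.16% over all genes. The receptor gene *Rarg* stood at -1.05 and *Dhrs3*, which reduces retinaldehyde to retinol, at -1.18, so the members did not share a direction. The list's median was 1.19.

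From the IGF axis, *Igf1*, the growth factor itself, differed by 2.13 and had 5 reads in 33 positive and 13 negative cells. It was the 1 gene called of 10, beside 1.16% over all genes, and *Igfbp3*, a binding protein for the factor, stood at 1.60. The list's median of 1.15 changed sign to -0.25 in the cells above the median of genes detected. *Zfhx4*, a zinc finger homeobox gene, was the 1 called of 13 limb patterning factors tested, at 2.07, against the same 1.16%. *Prrx1*, a general limb mesenchyme factor in the same list, stood at -1.40 and *Shox2* at 1.67, with 0.51 in NXT0142 and 2.69 in NXT0143.

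Factors of muscle connective tissue were examined because *Meox2* is known from limb muscle. *Osr1*, a zinc finger factor of connective tissue fibroblasts, differed by 2.39, with 1.52 in NXT0142 and 3.16 in NXT0143, and had 5 reads in 35 of 67 positive cells (52.2%, 39.7% to 64.6%) and 12 of 56 negative cells (21.4%, 11.6% to 34.4%). *Pdgfra*, the receptor for platelet-derived growth factor on mesenchymal cells, differed by 2.25 and was present in 63 and 41 cells. These were the 2 genes called of 17 tested, beside 1.16% higher over all genes, and the list's median was 0.19, below that of all genes. *Osr2*, the paralogue of *Osr1*, stood at -0.43, *Tcf7l2*, a marker of muscle connective tissue, at 0.47 and *Tcf4*, a bHLH factor gene, at 1.13.

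**Figure D5:**
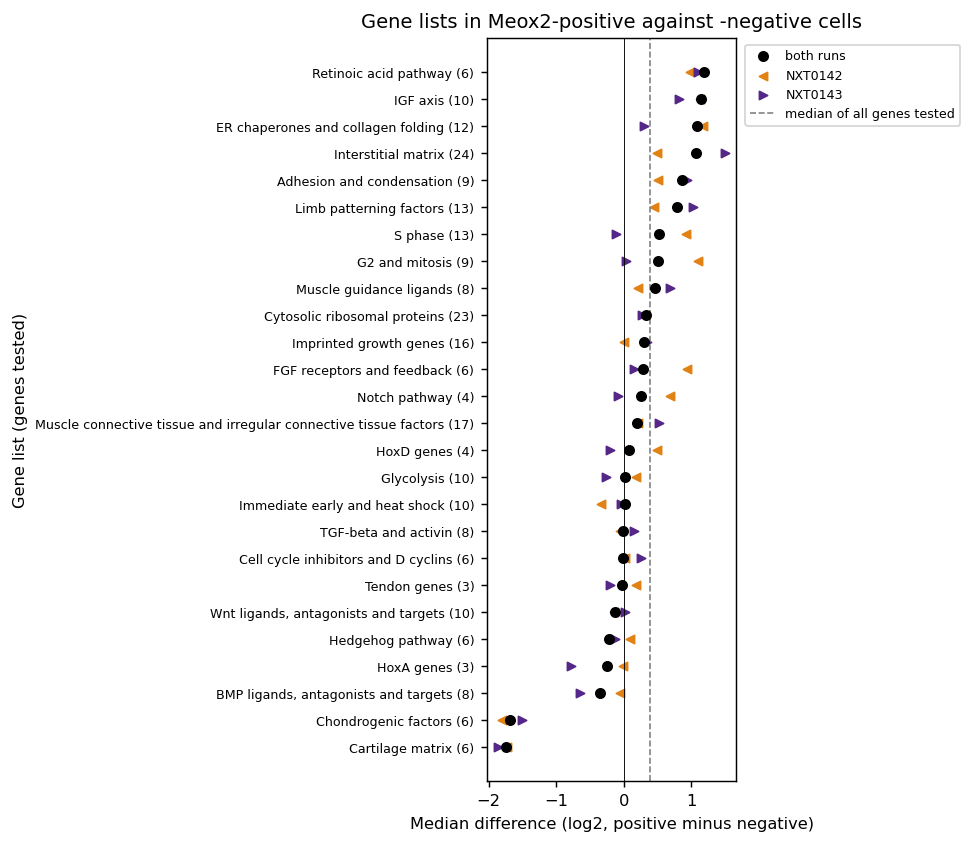
Median difference between *Meox2*-positive and *Meox2*-negative cells for each gene list with at least 3 genes tested (number in brackets), over both runs (black) and within each run (triangles); the dashed line is the median of all genes tested, 0.38. Chondrogenic factors (-1.69) and cartilage matrix (-1.75) stand apart on the left, and retinoic acid (1.19), IGF axis (1.15) and interstitial matrix (1.07) are on the right.

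Marker lists for other cell types showed no cell of the muscle classes among the sorted cells of either group. *Myod1* and *Myog*, the factors that determine muscle, had 0 reads in all zeugopod cells, and *Pax3* and *Lbx1*, which mark migrating muscle precursors, reached 5 reads in none of them. A count of 0 allows a share of up to 4.48% of positive and 5.36% of negative cells. Only the brightest 20% of cells for GFP were sorted, so these counts cannot show whether muscle cells of the forearm carried *Meox2*. *Pax7*, another gene of muscle precursors, had 5 reads in 7 positive and 8 negative cells, but never more than 24. No cell met the criteria for the epithelium, endothelium, macrophage or Schwann cell classes, and 1 positive cell met that for smooth muscle and pericytes. Only 1 of 4 blood markers was in the table, so that blood could not be assessed. The tendon class, cells with at least 2 of *Scx*, *Tnmd* and *Tnc*, held 10 positive (14.9%) and 7 negative cells (12.5%), and its order was opposite in the runs, with 5 of 31 and 6 of 27 cells in NXT0142 and 5 of 36 and 1 of 29 in NXT0143. Of the cell cycle markers, 3 of 4 were present in 13 positive and 10 negative cells, again in opposite order, with 9 and 5 cells in NXT0142 and 4 and 5 in NXT0143. Limb mesenchyme markers were found in 45 and 37 cells, 67.2% and 66.1%, with 26 and 21 cells in NXT0142 and 19 and 16 in NXT0143. The largest contrast was in the chondrogenic class, defined by 5 reads of at least 3 of *Sox9*, *Col2a1*, *Acan*, *Col9a1* and *Matn1*. *Sox9* and *Col9a1* are among the genes called lower above, so this contrast is not a separate result. At 0 *Meox2* reads, the class and *Col9a1* were each found in 20 of 38 cells.

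The chondrogenic class held 8 of 67 positive cells (11.9%, 5.30% to 22.2%) and 30 of 56 negative cells (53.6%, 39.7% to 67%). Within runs it held 3 of 31 and 16 of 27 cells in NXT0142, and 5 of 36 and 14 of 29 cells in NXT0143. After thinning and with 1 read as the criterion, the class held 9 of 66 positive cells (13.6%) and 31 of 53 negative cells (58.5%). Without thinning, 1 read as the criterion gave 28.4% and 60.7%. Seen from the other side, 8 of the 38 chondrogenic cells (21.1%) and 59 of the other 85 cells (69.4%) were *Meox2*-positive. The 8 cells that were both had between 2418 and 5241 genes detected, with a median of 3930.5, below the 4270 of the 59 positive cells outside the class. The 3 of them in NXT0142 had 5, 6 and 392 *Meox2* reads, the last in a cell with only 186271 reads on genes. The 5 in NXT0143 had between 28 and 2467 *Meox2* reads. Doublets were not called.

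The negative cells comprised 30 of the chondrogenic class and 26 outside it. *Col9a1* had 5 reads in 96.7% of the former and 3.85% of the latter, which follows in part from its use in the class. *Sox5* and *Sox6*, which the class did not use, had 5 reads in 93.3% and 86.7% of negative chondrogenic cells, in 30.8% and 19.2% of other negative cells, and in 13.6% and 8.47% of positive cells outside the class. Among genes higher in positive cells, *Rnd3* was found in 26.7% of negative chondrogenic cells, 69.2% of other negative cells and 84.7% of positive cells outside the class. *Osr1* was found in 6.67%, 38.5% and 57.6% of the same groups.

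When the cells of the chondrogenic class were left out, which was done because the class is unequal between the groups, 59 positive and 26 negative cells remained. These were 28 and 11 cells in NXT0142 and 31 and 15 in NXT0143. Their medians of genes detected were 4270 and 3647, further apart than the 4210 and 3773.5 of all cells. The part of this gap in the values below was not tested. Of 5151 genes tested, 2.19% were called higher and 5 genes lower (0.0971%), and the median over all genes was 0.41. Of the genes called higher, 28 were shared with the comparison of all cells, which is 47.5% of those calls and 24.8% of the calls without the class. *Meox2* is counted among them by construction. The cells are a subset of those compared before, so the overlap is not independent. Of the genes called lower 1 was shared, *Nr6a1os* at -2.40. The other 4, named after their values were seen, were *Npat* (-2.25), *Glg1* (-2.08), *Ints2* (-2.06) and *Ppil1* (-2.04), none of which is on the cartilage lists. The difference of *Sox9* was -2.0, with -0.34 in NXT0142 and -3.26 in NXT0143, whereas *Sox6* was at -0.49, *Col9a2* at -0.89 and *Col9a1* at -0.25. *Sox9* and *Col9a1* are markers of the class, so their values here depend on how it was defined. *Kctd12* (2.82), *Vim* (2.80), *Nbl1* (2.62), *Egfl6* (2.47) and *Col3a1* (2.31) were above 2 over both runs together. In NXT0142 *Col3a1* was at only 0.39 and *Egfl6* at 0.71, against 3.79 and 3.85 in NXT0143, and *Kctd12* was at 1.78 and 3.59. *Vim* and *Nbl1* were above 2 in each run. Over both runs *Osr1* was at 1.40, *Tpm1* at 1.48 and *Rnd3* at 1.27, but their direction differed between the runs, at -0.86, -0.52 and -0.42 in NXT0142 and 3.20, 3.0 and 2.53 in NXT0143.

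The cells with few *Meox2* reads, grouped in this way after the values were seen, were unlike those with many. *Osr1* had 5 reads in 1 of the 15 cells with 5 to 19 *Meox2* reads and in 34 of the 52 cells with 20 or more, beside 12 of 56 negative cells. In NXT0142 these were 0 of 11 and 13 of 20 cells, and in NXT0143 1 of 4 and 21 of 32. *Sox9* had 5 reads in 12 of the 15 cells and in 22 of the 52, which was a difference of NXT0142, with 10 of 11 and 6 of 20 cells. In NXT0143 the shares were equal, 2 of 4 and 16 of 32. The chondrogenic class, in contrast, was rare in both, with 2 of 15 and 6 of 52 cells, and frequent in cells with 0 reads (20 of 38) and in cells with 1 to 4 reads (10 of 18). *Kctd12* was present in 9 of 15 and 39 of 52 cells, and in 8 of 38 and 8 of 18 of those with 0 and 1 to 4 reads.

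*Hoxd8* is a gene of the *HoxD* cluster on the side away from *Hoxd13*. It had its highest levels in the cells with 5 to 19 *Meox2* reads, called intermediate here. Of 4 *HoxD* genes tested it was the 1 called, as higher, beside 1.16% higher over all genes. Its normalized median was 952 in the 15 cells with 5 to 19 *Meox2* reads, 5.28 in the 52 cells with 20 or more, 0.910 in the 18 cells with 1 to 4 and 0.364 in the 38 cells with none, the last being the floor that 0 reads gives for this gene. In NXT0142 the mean log2 level was 9.24 in the 11 intermediate cells and 5.21 in the 20 cells above them, and in NXT0143 it was 9.13 in the 4 intermediate cells and 2.71 in the 32 above. At least 5 reads were present in 14 of the 15 cells and in 35 of the 52. The difference of *Hoxd8* between all positive and all negative cells, 2.30, therefore rested in part on the intermediate cells. It was 1.06 without them, beside a median of 0.42 over all genes. When only cells with at least 20 reads were called positive it was -0.34, with the intermediate cells then counted as negative. The other *HoxD* genes tested stood at 0.33 (*Hoxd9*), -0.57 (*Hoxd10*) and -0.19 (*Hoxd11*), the last in 52 positive and 46 negative cells. Of 3 *HoxA* genes tested none was called, beside 1.16% higher and 0.237% lower over all genes. *Hoxa10*, present in 54 and 52 cells, was at -0.64.

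*Meox1*, the paralogue of *Meox2*, was counted in the raw table but has no row in the normalized one. It had at least 5 reads in 10 of 67 positive cells (14.9%, 7.40% to 25.7%) and 2 of 56 negative cells (3.57%, 0.435% to 12.3%), in 0 of 76 autopod cells, and was more frequent in the positive group in each run, with 3 and 1 cells in NXT0142 and 7 and 1 in NXT0143. These intervals overlap.

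Because positive cells had more genes detected, the called genes were followed separately in cells at or below the median of 3995 genes and in cells above it. In the former (26 positive and 36 negative cells, median 3631.5 and 3479 genes) 57 of the 58 genes called higher besides *Meox2* kept their direction and 16 still differed by 2, and all 12 lower genes kept theirs, 4 of them by 2. The exception was *Map1b*, at -0.58. In the latter (41 and 20 cells, 4438 and 4628.5 genes), where negative cells had more genes, all 58 kept their direction, 33 by at least 2, and all 12 lower genes differed by at least 2, with *Sox9* at -5.31. The median over the same 5067 genes was 0.11 in the former and 0.12 in the latter, below the 0.38 of all cells. The called genes had been chosen for large differences in these same cells, so a kept direction was largely set in advance. The share of all genes that kept their direction was not computed, and the part of detection was not tested.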

How the data were processed

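The authors sorted GFP-bright cells, captured them on a Fluidigm C1 chip, mapped reads uniquely to mm10 and ERCC spike-ins with Bowtie2 and counted them on GRCm38 genes. They deposited raw counts for 23165 genes in 225 cells and a normalized signal table for 10948 genes in 199 cells. The deposited signal is a count divided by a spike-in size factor centred within each run, plus 1, divided by gene length in kb; 99.96% of values gave whole numbers (tolerance 0.001) when this was undone, so that the lowest possible value of a gene depends on its length. ERCC rows were not used, since their columns did not follow the cell names.

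Cells were grouped by *Meox2* counts. Differences are of mean log2(value + 1). Genes were tested at 5 reads in 25% of either group and called at a difference of 2 with the same direction in both runs. With 1 pool per tissue no test was possible. Numbers of genes per cell use 1 read, and numbers of cells with a gene use 5. Thinning kept 500000 reads per cell (seed 42). Intervals of shares are Clopper-Pearson at 95%, and the limit beside 0 cells is the share of 3. The division of the cells, the 28 gene lists and the 12 marker classes were chosen with earlier results of these data known. Named genes were *Meox2*, *Meox1*, the 12 with the largest called differences each way that kept their direction on the CPM scale, the 5 highest and 5 lowest rank correlations with *Meox2*, and list or marker members where their list is described; 1 of these genes is not reported here. Bins of *Meox2* reads and the combination with the chondrogenic class were added after seeing the data. Calculations were checked on simulated data. Positions are from GENCODE M21 (GRCm38); Python 3.11.15, numpy 2.4.6, pandas 2.3.3 and scipy 1.17.1 were used.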

Additional observations from a re-analysis of the deposited data

How the results depend on the processing

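The number of genes called depended on the processing. Of the 70 genes called besides *Meox2*, 68 kept their sign in all 19 alternatives. They had been chosen for the same direction in both runs, so the alternatives by run could not reverse them. The other alternatives used overlapping cells, and the share over all genes was not computed. The exceptions were *Map1b*, at -0.58 in cells at or under the median of genes detected, and *Hoxd8*. *Hoxd8* was at -0.34 when 20 reads were required, which counts cells with 5 to 19 reads as negative. It was also below 0 when a normalized *Meox2* value of at least 5 was required. In all cells 1.16% of the genes tested were called higher and 0.237% lower. These shares moved to 2.82% and 0.454% with a pseudocount of 0.1 and to 0.178% and 0.0789% with one of 10, where the median over all genes was 0.20. CPM gave 0.474% lower, thinned CPM 0.540%, and thinned CPM with groups called again 0.522% with a median of 0.22. NXT0142 alone gave 3.88% and 0.400%, and NXT0143 alone 2.40% and 0.362%. A criterion of 1 *Meox2* read gave 1.81% higher, a normalized value of at least 5 gave 1.83%, and leaving out cells with 1 to 4 reads 2.34%. Leaving out cells with 5 to 19 reads, added after seeing the data, gave 1.83% higher, and centring on the median, also added, 0.395% and 0.434%. Without the chondrogenic class the shares were 2.19% and 0.0971%. Cells at or under the median of genes detected gave 0.448% lower and a median of 0.13. Cells above it gave 1.81% lower and a median of 0.020, and there the medians of the IGF axis (-0.25) and of ER chaperones and collagen folding (-0.28) changed sign. With no filter the same genes were 0.539% and 0.110% of those tested, and the median was 0.15. A difference of 1 gave 14.4% and 1.82%, and one of 3 gave 0.0987% and 0.0789%. The positive share of 54.5% of cells became 69.1% at 1 read, 42.3% at 20 reads and 43.9% at a normalized value of 5. The difference of 436.5 in median genes detected became 270.5 after thinning. The chondrogenic share of positive cells became 28.4% with markers at 1 read. The cause of these changes was not tested. No paired analysis was possible because the cells carry no animal or replicate number shared between the groups and each tissue is 1 pool.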

Other observations

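Of the gene lists with at least 3 genes tested, 16 had no gene called, beside 1.16% called higher and 0.237% lower over all genes. Their medians lay between -0.35 (BMP ligands, antagonists and targets) and 1.08 (ER chaperones and collagen folding). Imprinted growth genes had 1 gene called higher of 16 tested, beside 1.16% of all genes. This was *Dcn* at 2.26, which is also on the list of interstitial matrix, and the median of the imprinted genes was 0.30. *Bmp4*, a BMP ligand, stood at 1.59 with 5 reads in 20 positive and 6 negative cells, whereas *Bambi*, a decoy receptor, was at -1.11. Among ligands and receptors that guide migrating muscle precursors, *Efna5* stood at 2.00, just short of a call, with 2.02 in NXT0142 and 2.01 in NXT0143, and *Epha7* at 1.21. The S phase and mitosis lists differed by run, with medians of 0.92 and 1.11 in NXT0142 and -0.11 and 0.04 in NXT0143. *Tgfbi*, a secreted matrix protein induced by TGF-beta, stood at -1.85 and was present in 20 positive and 28 negative cells. *Kera*, a tendon and cornea proteoglycan that did not pass the filter, had 5 reads in 13 positive and 2 negative cells.

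In the autopod, all 5 cells with at least 5 *Meox2* reads came from NXT0072, where they were 5 of 59 cells (8.47%), and 0 of the 17 autopod cells of NXT0143 reached 5 reads. The highest autopod cell had 481 reads. A further 13 autopod cells had 1 to 4 reads, beside 18 zeugopod cells.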
